A study of Mus musculus with 25 samples.

Results

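The 31 genes described here encode the enzymes that make cholesterol, fatty acids and the galactolipids of myelin, with the regulators that set their transcription. They were taken by symbol from the 47729 genes of the deposited count table, and all 31 were found and passed the filter on low counts. Brain hemispheres were taken from male mice of the inbred laboratory strain C57BL/6, and their total RNA was sequenced at 2, 9, 15, 24 and 30 months of age, with 5 RNA-seq libraries at each age and 25 in all. The labels give no treatment or altered gene in any group. Each age is a separate set of samples, so nothing was followed in the same animal, and p-values measure the spread between these samples, since the labels do not say whether each came from a separate mouse.

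The brain makes nearly all of its own cholesterol, because cholesterol carried in blood lipoproteins does not cross the blood-brain barrier, and most of it sits in myelin. When sterols in the endoplasmic reticulum run low, the proteins SREBP-2 (gene Srebf2) and SREBP-1 (gene Srebf1) are cut from the membrane, enter the nucleus and raise transcription of the enzymes; INSIG1 holds them back when sterols are plentiful. SREBP-2 acts mostly on cholesterol genes and SREBP-1 mostly on fatty acid genes. The newly made fatty acids are then elongated and desaturated, and oligodendrocytes join hydroxylated fatty acids to sphingolipids and add galactose to form the lipids of myelin.

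Library totals were 17800113 to 31261121 counts. Neuron, astrocyte and mature oligodendrocyte markers were abundant, with sums of 7940 to 10600 CPM for 10 neuron markers, 4940 to 6230 CPM for 10 astrocyte markers and 5220 to 7480 CPM for 12 oligodendrocyte markers (CPM, the count scaled to a common library total, by TMM). Replicates 2 to 5 of 30 months stood apart from the other libraries by GC content. Against the mean of the younger libraries, the 10% of genes richest in GC exceeded the 10% poorest by a median log2 gap of 1.08 to 1.98 in those 4 libraries. That gap was 0.129 in replicate 1 of the same age, and it lay between -0.247 and 0.147 in the 20 libraries of 2 to 24 months. The share of mitochondrial rRNA was also higher at 30 months (1.4% to 1.89% of counts, replicate 1 included) than at the younger ages (0.633% to 0.847%). For that reason 2 to 24 months were compared among themselves, and 30 months was compared after a GC correction, and log2 fold changes without it and from replicate 1 alone are given beside most of its values. Summed over the 31 genes, the share of counts was 0.509% to 0.532% in replicates 2 to 5 of 30 months and 0.487% in replicate 1, against 0.391% to 0.479% at the younger ages.

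Of the 31 genes, 23 have a promoter entry in RefSeq (build GRCm38.p6, 250 bases before to 50 after the start). Promoters were searched on both strands for the CCAAT box (CCAAT), the GC box (GGGCGG) and one written form of the sterol regulatory element, the site SREBPs bind (TCACNCCAC). All 9 sterol enzymes with an entry held a CCAAT box in at least one listed promoter, as did 3 of 3 regulators, 4 of 5 fatty acid synthesis genes and 2 of 4 elongases. The 5 genes whose entries held none were Acaca, Elovl6, Elovl7, Fads2 and Ugt8a. The only entries of Acaca and Acacb lie inside the annotated gene, away from its start. For Dhcr7 and Me1 the CCAAT boxes lay only in an entry inside the gene, and the entry at the gene start held none. Counted by promoter, 19 of 29 held one, and 37.4% of all 32851 listed mouse promoters do. The sterol element stood in the Hmgcs1 promoter, at position -137 from the start, and in no other promoter of the 31 genes, and 1.24% of all promoters hold it. GC boxes stood in 21 of 29, and 35.7% of all promoters hold one. The promoters of 4 of the 9 sterol enzymes with an entry are shown 5′ to 3′. How these 4 varied from library to library is given further on. CCAAT boxes (ATTGG where on the other strand) and the sterol element are in capitals.
Hmgcs1, chr13:119690101-119690400, plus strand: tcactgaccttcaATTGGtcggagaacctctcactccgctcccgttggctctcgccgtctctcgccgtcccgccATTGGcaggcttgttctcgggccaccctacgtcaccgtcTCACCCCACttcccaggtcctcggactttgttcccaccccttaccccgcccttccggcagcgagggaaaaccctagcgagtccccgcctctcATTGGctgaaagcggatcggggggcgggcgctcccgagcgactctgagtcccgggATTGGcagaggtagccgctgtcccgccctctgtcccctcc
Msmo1, chr8:64733529-64733828, minus strand: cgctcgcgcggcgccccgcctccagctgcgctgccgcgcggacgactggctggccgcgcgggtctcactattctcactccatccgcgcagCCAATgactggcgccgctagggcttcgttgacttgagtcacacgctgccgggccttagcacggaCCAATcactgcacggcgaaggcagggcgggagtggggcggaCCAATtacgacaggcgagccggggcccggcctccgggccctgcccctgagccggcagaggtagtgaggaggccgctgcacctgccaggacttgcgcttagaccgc
Nsdhl, chrX:72918271-72918570, plus strand: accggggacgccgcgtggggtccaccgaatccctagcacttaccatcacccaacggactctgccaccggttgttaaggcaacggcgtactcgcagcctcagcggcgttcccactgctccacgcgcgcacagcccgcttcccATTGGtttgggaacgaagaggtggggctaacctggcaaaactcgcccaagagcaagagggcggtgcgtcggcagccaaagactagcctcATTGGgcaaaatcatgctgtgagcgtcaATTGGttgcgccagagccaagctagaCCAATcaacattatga
Sc5d, chr9:42264251-42264550, minus strand: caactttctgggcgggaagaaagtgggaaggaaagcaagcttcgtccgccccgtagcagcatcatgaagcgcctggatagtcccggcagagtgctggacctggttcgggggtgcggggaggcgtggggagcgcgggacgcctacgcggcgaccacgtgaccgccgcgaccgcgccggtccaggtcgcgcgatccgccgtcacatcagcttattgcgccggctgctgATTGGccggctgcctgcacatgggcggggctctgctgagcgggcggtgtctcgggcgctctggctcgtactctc
Hmgcs1 and Nsdhl each held 4 CCAAT boxes, Msmo1 held 3 and Sc5d held 1. A match gives only the letters in this window and says nothing of binding.

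Levels differed widely between the genes. Per kilobase of the longest annotated transcript, over the 20 libraries of 2 to 24 months, Scd2 was the highest at 307 CPM per kilobase, or 1674 CPM. This stearoyl-CoA desaturase, which makes oleic acid, is the form known to prevail in mouse brain. Next on the same scale came Hmgcs1 (HMG-CoA synthase, an early step of the mevalonate pathway) at 87.4, Fads1 at 77.2, Scd1 at 64.9 and Acly (ATP citrate lyase, which makes acetyl-CoA in the cytosol) at 52.2 CPM per kilobase. The lowest were Acacb at 1.11, Idi1 at 0.864 and Fdps at 0.630 CPM per kilobase. Idi1 (isopentenyl diphosphate isomerase) and Fdps (farnesyl diphosphate synthase) share 30.5% and 11.7% of the 50-base stretches of their transcripts with other annotated genes, including 4 pseudogenes each, so their counts are uncertain. The same holds for Acaca (52.6% shared, with the pseudogene Gm5182), Me1 (32.8%), Fdft1 (30.7%, of which 19.9% with its neighbour Ctsb) and Hmgcs1 (13.6%, with Gm48342). Each other gene shared less than 5% (highest, Scd1 at 4.66%).

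**Figure D1:**
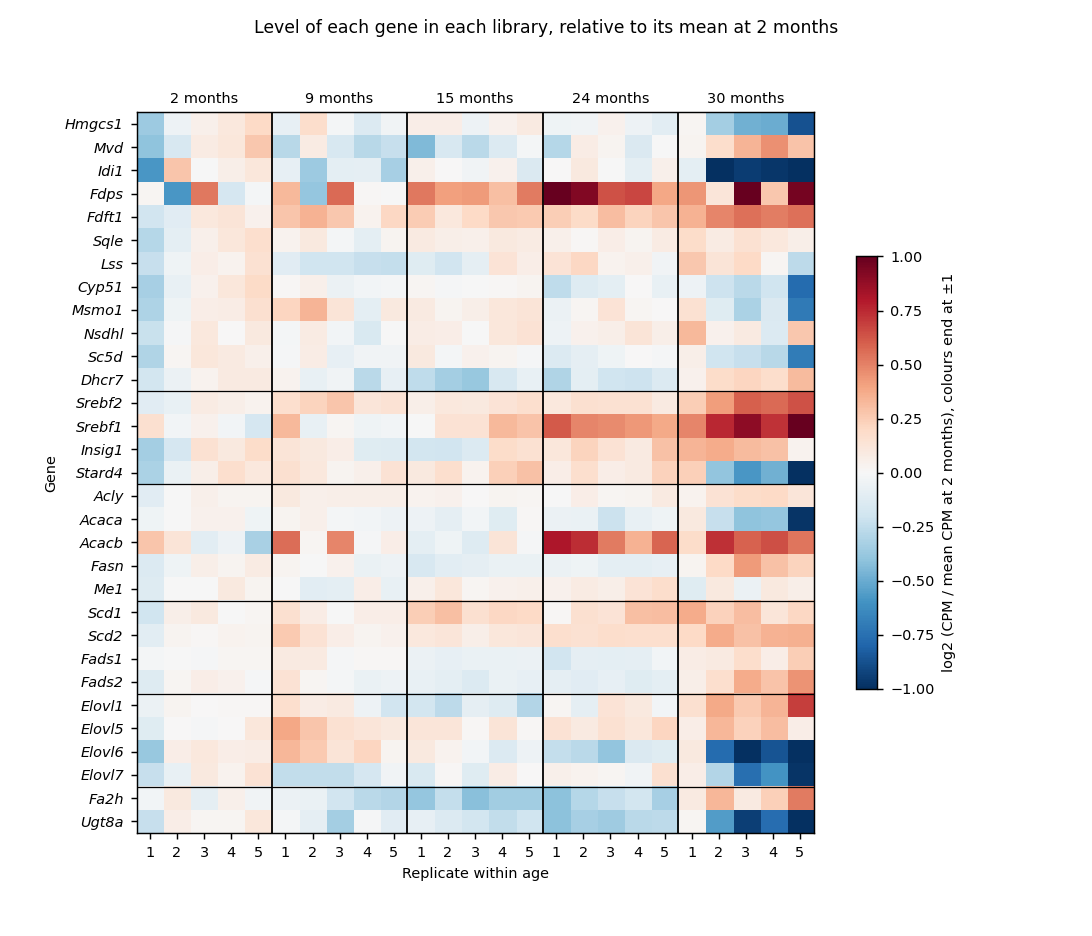
Log2 ratio of each gene's CPM (rows, grouped by role) in each of 25 libraries (columns, by age) to its mean at 2 months; red is higher and blue lower, and colours end at ±1. Replicate 1 of 2 months is pale blue down the sterol enzymes, Srebf1 and Acacb redden at 24 months, and replicates 2 to 5 of 30 months stand apart in both directions.

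Before any comparison of ages, 1 library set much of the spread at 2 months, and replicate 2 was next lowest for several genes. In replicate 1 of 2 months, 27 of the 31 genes had their lowest value of the 5 libraries, among them 11 of 12 sterol enzymes, 3 of 4 regulators and transport genes, all 4 desaturases and all 4 elongases. Of all genes past the low-count filter, 24.6% were lowest in that library. The Hmgcs1 level was 236 CPM in replicate 1, and 293, 314, 326 and 347 CPM in replicates 2 to 5. For Elovl6 (the elongase that takes palmitic to stearic acid) replicate 1 had 59.0 CPM, and replicates 2 to 5 had 80.2, 82.5, 80.4 and 80.9 CPM. Both genes were thus clearly lower in replicate 1 than in any other library of that age. For several genes replicate 2 came next. Sqle had 61.66 and 70.14 CPM in replicates 1 and 2, and 77.85 to 84.49 CPM in the others. Insig1 had 46.76 and 52.52 CPM there, and 63.32 to 67.25 CPM in the others. Srebf2 had 198.2 and 204 CPM, and 220.1 to 226.7 CPM in the others. Replicate 2 was highest for 3 of the 31 genes, among them Idi1 at 3.267 CPM. Among the 11 sterol enzymes that were lowest in replicate 1, the deficit against the mean of the other 4 libraries ran from 14.4% (Dhcr7) to 38.2% (Idi1). Srebf1 and Acacb went the other way: Srebf1 had 63.7 CPM in replicate 1, above 50.6 to 58.6 CPM in the others, and Acacb had 10.1 CPM, above 6.65 to 9.14 CPM. The GC gap of this library was -0.021 and its total 20708848 counts, both within the range of the other young libraries. Several of its marker sums stood apart at its age. Mature oligodendrocyte markers summed to 5515 CPM in replicate 1, and to 6153 to 6774 CPM in replicates 2 to 5; neuron markers were also lowest there (9464 CPM, others 9774 to 10060 CPM). Endothelial markers were highest at 380.5 CPM (others 299.1 to 336.8 CPM), as were microglia (400.1 CPM, others 339.4 to 381.6 CPM), astrocyte (5746 CPM, others 5325 to 5568 CPM) and leptomeningeal fibroblast markers (890.8 CPM, others 720.3 to 856.9 CPM). The part of these marker differences in the low values of the 27 genes was not tested. No other library of 2 to 24 months was lowest for more than 13 of the 31 genes (replicate 3 of 15 months). On the high side, replicate 1 of 9 months was highest for 16 of the 31 genes, and for 21.5% of all genes. Its choroid plexus markers summed to 43.1 CPM (525.9 to 570.8 CPM in the other libraries of 9 months). Its red blood cell markers summed to 202.8 CPM (others 34.16 to 74.85 CPM). The part of these differences in its gene values was not tested.

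**Figure D2:**
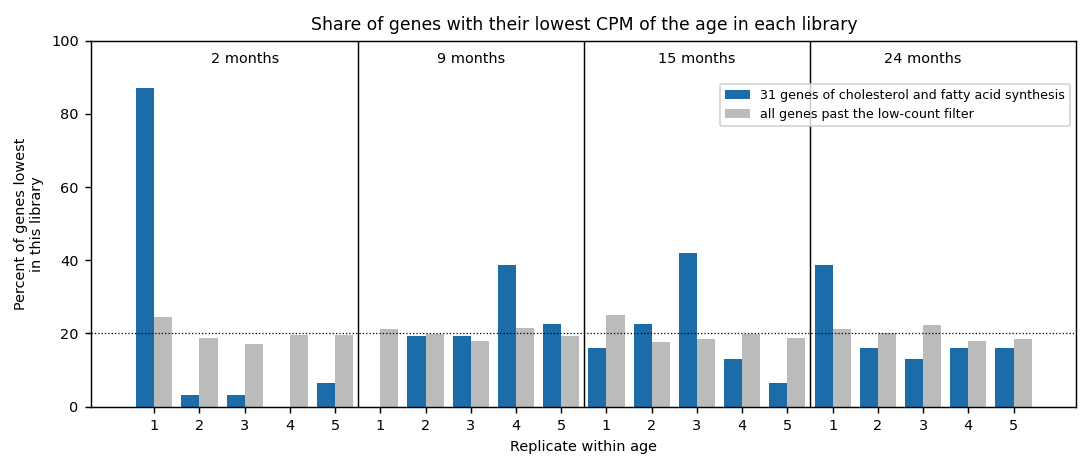
Percent of genes whose lowest CPM of the 5 libraries of an age fell in each library, for the 31 genes (blue) and for all genes past the low-count filter (grey), at 2, 9, 15 and 24 months; the dotted line marks an even share of 20%. Replicate 1 of 2 months holds the lowest value of 27 of the 31 genes, against 24.6% of all genes.

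Sterol enzymes varied together between libraries of the same age. Over the 20 libraries of 2 to 24 months, with each age mean removed from log2 CPM, the median Pearson correlation among the 66 pairs of the 12 enzymes was 0.593. Among the 45 pairs left without the low-count genes Idi1 and Fdps it was 0.73, and over all 465 pairs of the 31 genes it was 0.426. Hmgcs1 and Sqle (squalene epoxidase, a rate-limiting step) had an r of 0.896. Without replicate 1 of 2 months the medians were 0.386, 0.553 and 0.221 and the r of Hmgcs1 with Sqle was 0.753, so part of the relation rested on that library. For the 4 enzymes whose promoters are shown, the median r to the other 9 enzymes, without Idi1 and Fdps, was as follows. It was 0.791 for Hmgcs1, 0.771 for Msmo1, 0.768 for Nsdhl and 0.74 for Sc5d. Without that library it was 0.607, 0.635, 0.606 and 0.39 in the same order. Insig1, itself a known SREBP target, followed the enzymes with a median r of 0.732 to the 10 enzymes, and Srebf2 with 0.668. Srebf1 and Acacb did not, at -0.291 and -0.432. Without replicate 1 of 2 months the 4 values were 0.587 for Insig1, 0.533 for Srebf2, -0.0724 for Srebf1 and -0.254 for Acacb. These values describe libraries that share scaling and depth and carry no p.

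From 2 to 24 months a few steps of cholesterol synthesis changed in level, the regulators Srebf1 and Srebf2, Acacb and the stearoyl-CoA desaturases were higher at 24 months, and both myelin galactolipid genes were lower. Tests used edgeR's quasi-likelihood fit with Benjamini-Hochberg adjustment over all 17472 genes tested, at an adjusted p under 0.05; n is 5 libraries per age in each comparison. At 24 against 2 months 13 of the 31 genes passed, 8 higher and 5 lower, and of all genes tested 22.8% passed, 11% higher and 11.7% lower. The median log2 fold change was 0.04 over the 31 genes and 0.0024 over all genes. Fewer passed against 2 months at 9 months (7, with 4 higher and 3 lower; 14.9% of all genes, 7.92% higher and 6.96% lower) and at 15 months (7, with 4 higher and 3 lower; 13.1% of all genes, 6.1% higher and 6.95% lower). Between 15 and 9 months 3 fell and none rose (10.9% of all genes passed, 4.45% higher and 6.45% lower), and between 24 and 15 months 3 rose and none fell (24.1% of all genes, 11.9% higher and 12.2% lower). A straight line over the 22 months from 2 to 24 months passed for 11 genes, 6 upward and 5 downward (16.8% of all genes, 8.44% upward and 8.32% downward). The shares of the 31 genes thus lay above the background in the comparisons with 2 months and the trend, and below it at 15 against 9 and 24 against 15 months; no test set them apart from other genes. A fit of all 25 libraries, in which the 30-month libraries also set the spread, called 6 of the 31 at 24 against 2 months (Fdps, Fdft1, Srebf1, Acacb, Scd2 and Fa2h), and 1 each at 9 and at 15 months against 2 months; of all genes that fit called 5.24%, 2.38% and 1.26% in these 3 comparisons.

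Of the 12 sterol enzymes, 3 passed at 24 against 2 months: Fdps and Fdft1 rose and Dhcr7 fell. Fdft1 is squalene synthase, the first step committed to sterols. Its level was 63.0, 60.6, 65.7, 62.1 and 64.4 CPM in replicates 1 to 5 of 24 months, against 46.5, 49.2, 57.0, 57.9 and 54.8 CPM at 2 months. Every library of 24 months lay above every library of 2 months. The log2 fold change was 0.25 ± 0.06 (SE), adjusted p = 0.00226. It was also higher at 9 months (0.23 ± 0.06, edgeR adjusted p = 0.00696) and at 15 months (0.22 ± 0.06, adjusted p = 0.0118) against 2 months, so the rise was present by 9 months, with no test past the threshold between later neighbouring ages up to 24 months.

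Fdps had 2.94, 2.76, 2.25, 2.31 and 1.90 CPM in replicates 1 to 5 of 24 months, and 1.47, 0.970, 2.09, 1.29 and 1.43 CPM at 2 months. The groups overlapped in a single value of 2 months, and the log2 fold change was 0.70 ± 0.17 (edgeR adjusted p = 0.0036); this rests on about 45.3 counts per library and on a gene with 4 pseudogenes. Dhcr7, the enzyme of the last step of one route to cholesterol, had 29.3, 33.6, 31.3, 31.1 and 32.8 CPM in replicates 1 to 5 of 24 months, against 31.7, 34.6, 36.9, 38.4 and 38.3 CPM at 2 months. Replicate 1 of 2 months lay among the 24-month values and the other 4 above them. Its log2 fold change was -0.19 ± 0.06 (edgeR adjusted p = 0.025) at 24 months and -0.23 ± 0.06 (adjusted p = 0.012) at 15 months against 2 months, and the call at 24 months was lost in 5 of 20 fits that each left out 1 library. Lss, lanosterol synthase, had 39.4, 37.1, 37.0, 36.4 and 36.0 CPM in replicates 1 to 5 of 9 months, against 36.3, 41.4, 44.5, 43.6 and 47.2 CPM at 2 months. Again only replicate 1 of 2 months lay among the values of the older group. The fall passed (log2 -0.20 ± 0.06, edgeR adjusted p = 0.0412), and the mean at 24 months was 45.1 ± 2.9 CPM (SD, n = 5); the call was lost in 11 of 20 such fits.

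The other 9 enzymes had log2 fold changes of -0.11 (Cyp51, lanosterol demethylase) to 0.08 (Lss) at 24 against 2 months, none past the threshold. Hmgcs1 is an example: 294, 296, 313, 294 and 281 CPM in replicates 1 to 5 of 24 months, against 236, 293, 314, 326 and 347 CPM at 2 months (log2 -0.04, adjusted p = 0.783). The 2-month libraries spread over and under those of 24 months. The coefficient of variation of the 12 enzymes had a median of 12.1% at 2 months, 7.88% at 9 months, 4.28% at 15 months and 4.97% at 24 months. With replicate 1 of 2 months left out, Cyp51 (-0.18 ± 0.04, edgeR adjusted p = 0.00296) and Sc5d (lathosterol oxidase, a late step; -0.12 ± 0.04, adjusted p = 0.0165) also passed as lower at 24 months.

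**Figure D3:**
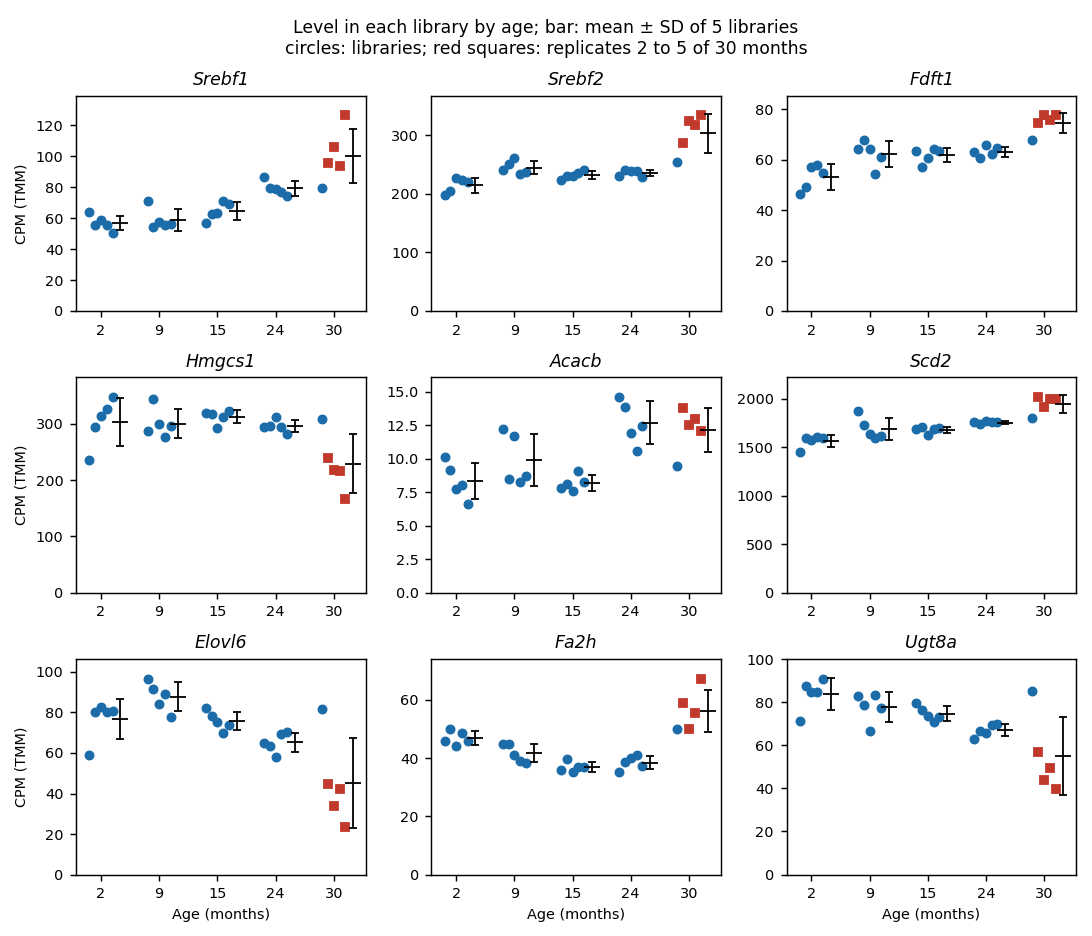
CPM after TMM scaling of 9 of the genes in each library at 2, 9, 15, 24 and 30 months (circles; red squares are replicates 2 to 5 of 30 months), with the mean ± SD of 5 libraries beside each group. All 5 libraries of 24 months lie above all 5 of 2 months for Srebf1, Srebf2, Fdft1, Acacb and Scd2 and below them for Fa2h and Ugt8a.

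Among the regulators, Srebf1 gave the clearest change with age. It had 86.8, 79.5, 78.7, 76.9 and 74.1 CPM in replicates 1 to 5 of 24 months, against 63.7, 55.7, 58.6, 55.7 and 50.6 CPM at 2 months. No library of 24 months reached down to the 2-month range, and the fold change was 1.39, or 0.48 ± 0.08 on the log2 scale (edgeR adjusted p = 0.000255). Mean levels were 56.9 ± 4.8, 58.8 ± 7.0, 64.6 ± 5.7 and 79.2 ± 4.7 CPM at 2, 9, 15 and 24 months (SD, n = 5 each). On the GC-corrected scale the means were 55.6, 57.7, 66.8 and 75.5 CPM, so how much of the difference lay after 15 months depended on the correction. The difference at 24 against 15 months was 0.29 ± 0.08 (edgeR adjusted p = 0.0107) and did not pass after a GC correction (0.18, adjusted p = 0.115). The linear trend gave 0.49 ± 0.07 over 22 months (edgeR adjusted p = 6.27e-05), and the call at 24 against 2 months stood in all 20 fits that left out 1 library. The counts do not separate the transcript isoforms of this gene.

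Srebf2 was higher by 9 months, and no step between later neighbouring ages up to 24 months passed the threshold. It had 241, 251, 260, 233 and 237 CPM in replicates 1 to 5 of 9 months, against 198, 204, 227, 223 and 220 CPM at 2 months. These groups did not overlap, and the log2 fold change was 0.19 ± 0.03 (edgeR adjusted p = 0.000294). Against 2 months it was 0.12 ± 0.03 at 15 months (adjusted p = 0.0191) and 0.13 ± 0.03 at 24 months (edgeR adjusted p = 0.00471). Insig1 (0.17 ± 0.10, adjusted p = 0.245) and Stard4, a carrier of cholesterol between membranes (0.13 ± 0.07, adjusted p = 0.185), did not pass at 24 against 2 months.

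Of the 5 genes of fatty acid synthesis, only Acacb passed at 24 against 2 months. Acacb is acetyl-CoA carboxylase 2, whose product at the mitochondrial surface limits the uptake of fatty acids for oxidation. Its level was 14.6, 13.9, 11.9, 10.6 and 12.5 CPM in replicates 1 to 5 of 24 months, against 10.1, 9.14, 7.74, 8.04 and 6.65 CPM at 2 months. The groups did not overlap, and the fold change was 1.53 (log2 0.61 ± 0.12, edgeR adjusted p = 0.000815). At 15 months the mean was 8.18 ± 0.58 CPM, and 24 against 15 months gave 0.63 ± 0.12 (edgeR adjusted p = 0.000662), also without overlap. The pathway enzymes proper did not pass: Acly 0.04 ± 0.03, Acaca -0.09 ± 0.04, Fasn (fatty acid synthase) -0.08 ± 0.03 and Me1 (malic enzyme, a source of NADPH) 0.10 ± 0.04 on the log2 scale at 24 against 2 months, with edgeR adjusted p values of 0.302, 0.0775, 0.0851 and 0.0781. Fasn passed as lower in 3 other fits: without replicate 1 of 2 months (-0.11 ± 0.03, edgeR adjusted p = 0.00589), with a GC correction (-0.11, adjusted p = 0.00394) and with a covariate for liver markers (-0.14, adjusted p = 0.0183). Me1 passed as higher with the GC correction (0.12, edgeR adjusted p = 0.0252).

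All 4 desaturases passed at 24 against 2 months, in opposite pairs: Scd1 and Scd2 rose, and Fads1 and Fads2, which desaturate polyunsaturated fatty acids, fell. Scd2 had 1758, 1737, 1770, 1758 and 1758 CPM in replicates 1 to 5 of 24 months, against 1453, 1599, 1577, 1605 and 1598 CPM at 2 months. The 24-month libraries lay within a narrow band above all those of 2 months, with a log2 fold change of 0.17 ± 0.03 (edgeR adjusted p = 0.000572). Scd1 had 290.4, 322.2, 316.8, 354 and 355.8 CPM in replicates 1 to 5 of 24 months, against 251.3, 300.2, 307.8, 287.7 and 291.7 CPM at 2 months. Replicate 1 of 24 months lay within the 2-month range and the other 4 lay above it (log2 0.19 ± 0.06, edgeR adjusted p = 0.0198). At 15 months, with 321.9 to 354.4 CPM, no library overlapped with 2 months (0.23 ± 0.06, edgeR adjusted p = 0.0107). Fads1 fell to 254.9 ± 10.6 CPM at 24 months, against 272.8 ± 3.2 CPM at 2 months (SD, n = 5 each; log2 -0.10 ± 0.03, edgeR adjusted p = 0.00947). It also passed as lower at 15 months (258.3 to 262.4 CPM) than at 9 months (271 to 290.9 CPM; -0.10 ± 0.03, adjusted p = 0.0161), without overlap. Fads2 averaged 94.9 ± 1.0 CPM at 24 months and 101.9 ± 5.1 CPM at 2 months (log2 -0.10 ± 0.04, edgeR adjusted p = 0.0333).

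Liver markers differed widely between libraries. All 12 of them (albumin, apolipoproteins and others) were detected, and their summed level was 63.5 to 284 CPM in the 5 libraries of 24 months, against 1.99 to 209 CPM at 2 months; albumin itself was at 0 in replicate 2 of 2 months. These ranges overlapped only through replicate 3 of 2 months at 208.6 CPM, since the other libraries of that age had 1.99 to 12.6 CPM. Log2 fold changes of the 12 markers ran from 1.24 to 2.03, and 1 passed as higher and none as lower. The median sum was 230 CPM at 24 months and 6.8 CPM at 2 months. With the log2 of that sum as a covariate, 7 of the 31 genes passed at 24 against 2 months, and the share of all genes fell to 11.6%. The fold changes were smaller than without it, and the calls lost, for Fdft1 (0.18, adjusted p = 0.103), Fdps (0.45, adjusted p = 0.165), Srebf2 (0.05, adjusted p = 0.425) and Scd1 (0.13, adjusted p = 0.285). The calls were also lost for Fads1 (-0.10, edgeR adjusted p = 0.0789), Fads2 (-0.12, adjusted p = 0.0793) and Elovl5 (0.16, adjusted p = 0.099), whose fold changes were as large as without the covariate (-0.10, -0.10 and 0.14). They held for Srebf1 (0.45, edgeR adjusted p = 0.0117), Acacb (0.64, adjusted p = 0.0146), Scd2 (0.17, adjusted p = 0.0159), Dhcr7, Fa2h and Ugt8a. Age and the liver sum went together in all these libraries but replicate 3 of 2 months. This fit therefore cannot tell them apart, whether a call was lost or held. Of 10 adipocyte markers 6 were tested, with 1 higher and 1 lower. The 10 summed to 14.7 to 17.6 CPM at 24 months and 13.1 to 15.5 CPM at 2 months. Most of that sum was Lipe, with 9.87 to 11.62 CPM at 24 months and 8.23 to 9.99 CPM at 2 months. Adipoq had 0.17 to 0.38 CPM at 24 months and 0.29 to 0.77 CPM at 2 months. Pck1 had 1.18 to 3.83 CPM at 24 months and 0.051 to 2.92 CPM at 2 months. Its levels went with albumin between libraries. At 2 months its 2.92 CPM was in replicate 3, where albumin was highest (127.6 CPM), and the others had at most 0.394 CPM. At 24 months its lowest value was in replicate 3, where albumin was lowest (38.47 CPM). Pck1 thus does not separate adipose from liver RNA here. The part of these markers in the values of the 31 genes was not tested.

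Among the 4 elongases, Elovl5, which elongates polyunsaturated fatty acids, had 103.6, 95.95, 88.32, 86.19 and 85.04 CPM in replicates 1 to 5 of 9 months, against 72.8, 79.78, 78.78, 79.46 and 85.97 CPM at 2 months. The groups met only at replicate 5 of each. Elovl5 rose at 9 months (0.21 ± 0.05, edgeR adjusted p = 0.00327) and at 24 months against 2 months (0.14 ± 0.05, adjusted p = 0.0287). Elovl7, with 22.3 to 25.8 CPM at 9 months and 22.5 to 29.2 CPM at 2 months, fell at 9 against 2 months (-0.19 ± 0.06, edgeR adjusted p = 0.0287), a call lost in 6 of 20 fits that left out 1 library. Elovl1, which makes very long saturated chains, was lowest at 15 months. It had 14.6, 13.8, 15.6, 15.2 and 13.5 CPM in replicates 1 to 5 of 15 months, against 15.9, 16.9, 16.6, 16.7 and 16.7 CPM at 2 months. All 15-month libraries lay below those of 2 months (log2 -0.18 ± 0.06, edgeR adjusted p = 0.0473) and, with some overlap, below most of 9 months (-0.21 ± 0.06, adjusted p = 0.0224). At 24 months the libraries had 15.59 to 18.2 CPM, all above the highest of 15 months (0.21 ± 0.06, edgeR adjusted p = 0.0098). The call at 15 against 2 months was lost in 13 of 20 fits that left out 1 library. It was also lost with a GC correction (-0.16, edgeR adjusted p = 0.09) and with a covariate for liver markers (-0.16, edgeR adjusted p = 0.152). DESeq2 (adjusted p = 0.0511) and limma-voom (adjusted p = 0.0575) did not call it either. With a GC correction the call at 15 against 9 months was lost too (-0.19, edgeR adjusted p = 0.0514).

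Elovl6 had 64.9, 63.7, 58.1, 69.1 and 70.3 CPM in replicates 1 to 5 of 24 months, against 59.0, 80.2, 82.5, 80.4 and 80.9 CPM at 2 months. Only replicate 1 of 2 months fell among the 24-month values. The log2 fold change was -0.23 ± 0.08 and missed the threshold (edgeR adjusted p = 0.0553). Without that library it was -0.32 ± 0.06 (edgeR adjusted p = 0.000464), and the trend over 22 months was -0.39 ± 0.08 (adjusted p = 0.00151), against -0.29 ± 0.10 (adjusted p = 0.0605) with it.

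Both genes of myelin galactolipid synthesis were lower at 24 than at 2 months. Fa2h, which hydroxylates the fatty acids of these lipids, had 35.3, 38.5, 40.1, 41.2 and 37.2 CPM in replicates 1 to 5 of 24 months, against 46.0, 50.1, 44.2, 48.6 and 45.7 CPM at 2 months. Ugt8a, the ceramide galactosyltransferase, had 63.1, 66.7, 65.8, 69.5 and 70.1 CPM at 24 months, against 71.4, 87.7, 84.9, 84.9 and 90.9 CPM at 2 months. Neither pair of groups overlapped. Log2 fold changes were -0.29 ± 0.05 for Fa2h (edgeR adjusted p = 9.25e-05) and -0.32 ± 0.06 for Ugt8a (adjusted p = 0.000682). Both calls stood in all 20 fits that left out 1 library. In the fit of all 25 libraries Fa2h passed (-0.29, edgeR adjusted p = 0.0166) and Ugt8a did not (-0.32, edgeR adjusted p = 0.152). Fa2h had passed as lower already at 9 months (-0.17 ± 0.05, edgeR adjusted p = 0.0192) and at 15 months (-0.34 ± 0.05, adjusted p = 4.11e-05) against 2 months, whereas Ugt8a passed as lower at 24 months alone among these ages.

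In whole tissue, fewer oligodendrocytes and less RNA per oligodendrocyte cannot be told apart. At 9 months the 12 mature oligodendrocyte markers summed to 5250 to 6310 CPM, against 5510 to 6770 CPM at 2 months, with 1 higher and 6 lower, and 6 of the 10 markers of premyelinating cells and precursors were lower, beside the lower Fa2h and Elovl7. The 12 mature oligodendrocyte markers summed to 6350 to 6820 CPM at 24 months and 5510 to 6770 CPM at 2 months, with 3 higher and 2 lower, beside the lower Fa2h and Ugt8a. At 15 months the sum was 5220 to 5630 CPM, against 5510 to 6770 CPM at 2 months, with 2 markers higher and 5 lower, beside the lower Fa2h and Elovl1. At 24 against 15 months 7 of the 12 were higher and none lower, beside the higher Elovl1. The 10 markers of premyelinating cells and precursors summed to 423 to 463 CPM at 24 months and 393 to 441 CPM at 2 months, with 3 higher and 4 lower. Microglia markers summed to 390 to 436 CPM at 24 months and 339 to 400 CPM at 2 months, with 8 of 10 higher, and 5 of 10 astrocyte markers were higher, beside the higher Srebf1, Acacb, Scd1 and Scd2. The part of these marker changes in the gene values was not tested.

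Leaving out replicate 1 of 2 months moved the count towards lower calls. Replicate 2 of 2 months, the next lowest for several genes, stayed in these fits. At 24 against 2 months 16 of the 31 genes then passed, 7 higher and 9 lower, and 22.5% of all genes did, 10.5% higher and 12% lower. Of the 16, 12 calls were shared with the full set and Cyp51, Sc5d, Fasn and Elovl6 were added as lower, while Elovl5 was lost. At 15 against 2 months 8 passed (2 higher and 6 lower; 12.7% of all genes, 5.73% higher and 6.94% lower), with Fasn, Fads2 and Ugt8a added as lower and Srebf2 and Scd2 lost. At 9 against 2 months Ugt8a was added and Scd2 lost (13.8% of all genes passed). Between 15 and 9 months 9 passed (11.7% of all genes) and between 24 and 15 months 6 passed (25% of all genes), although neither comparison uses the 2-month level. The trend passed for 15 genes (6 upward and 9 downward; 17.8% of all genes, 8.68% upward and 9.16% downward), with Cyp51, Acaca, Fasn and Elovl6 added.

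**Figure D4:**
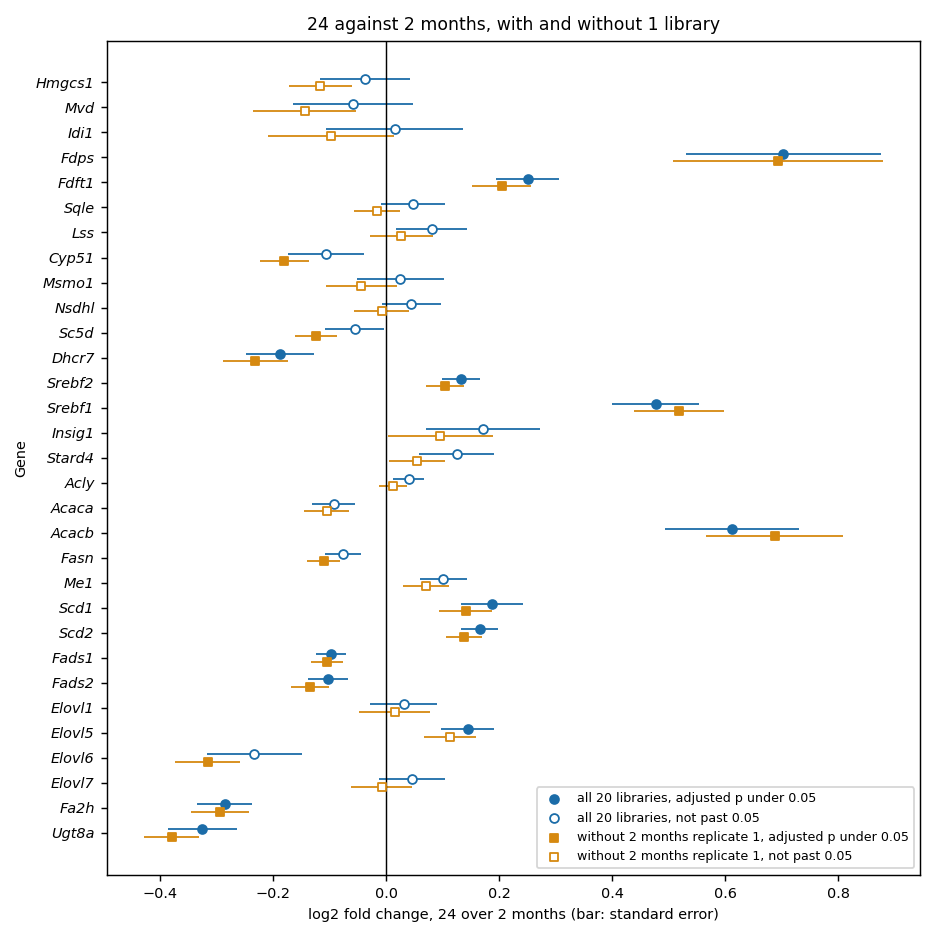
Log2 fold change of each gene at 24 over 2 months with its standard error, from all 20 libraries of 2 to 24 months (blue circles) and without replicate 1 of 2 months (orange squares); filled marks have an adjusted p under 0.05. Every gene but Srebf1 and Acacb moves left without that library, and Elovl6 reaches -0.32.

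At 30 months the direction of many genes depended on the GC correction. With it, 16 of the 31 genes passed against 2 months, 14 higher and 2 lower; of the 17738 genes tested 45.6% passed, 22.8% higher and 22.8% lower. Against 24 months 15 passed, 14 higher and 1 lower (41% of all genes, 20.3% higher and 20.7% lower). Without the correction 26 passed against 2 months, 17 higher and 9 lower, and 58% of all genes did, 28.5% higher and 29.5% lower. The split of the calls thus differed from that with correction, and the sign of the fold change differed between both fits for 7 genes (Hmgcs1, Mvd, Msmo1, Sc5d, Fasn, Elovl7 and Ugt8a). Calls went the same way in both fits for 11 genes (9 higher and 2 lower) and opposite ways for Sc5d and Ugt8a.

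Ugt8a shows this most plainly: 85.3, 56.9, 43.7, 49.6 and 39.5 CPM in replicates 1 to 5 of 30 months without correction, against 71.4 to 90.9 CPM at 2 months. With correction the same libraries had 88.75, 109.4, 97.67, 106.1 and 105 CPM, against 69.48 to 88.78 CPM at 2 months and 64.15 to 71.81 CPM at 24 months. It was the largest corrected change of the 31 genes at 30 against 24 months (0.56 ± 0.06, edgeR adjusted p = 2.05e-07), where the value was -0.285 without correction and 0.37 in replicate 1 alone. Acacb alone passed as lower there (-0.29 ± 0.11, edgeR adjusted p = 0.0435), and did not pass without correction (-0.06, adjusted p = 0.682) or in replicate 1 alone (-0.43, adjusted p = 0.298). Against 2 months the log2 fold change of Ugt8a was 0.29 ± 0.06 with correction (edgeR adjusted p = 0.000451) and -0.61 without it. The Ugt8a transcript has 38.0% GC, the lowest of the 31. Replicate 1 alone gave 0.10, not past the threshold.

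Fdft1, Srebf2, Srebf1, Scd1 and Scd2 were higher at 30 than at 2 months in all 3 fits: with correction, without it, and in replicate 1 alone with correction. Fdft1 after correction had 66.12, 67.92, 69.9, 69.07 and 67.23 CPM in replicates 1 to 5 of 30 months, all above the 45.85 to 57.04 CPM of 2 months. Scd1 after correction had 367.9, 362.2, 395.9, 348.2 and 411.4 CPM, against 247.8 to 306 CPM at 2 months. In both genes replicate 1 lay with the other 30-month libraries. For the 5 genes in the order given, corrected log2 fold changes were 0.38 ± 0.06, 0.21 ± 0.04, 0.51 ± 0.07, 0.41 ± 0.06 and 0.31 ± 0.04. The edgeR adjusted p values were 7.42e-06, 5.78e-05, 1.79e-06, 2.83e-06 and 1.62e-06. Without correction the fold changes were 0.49, 0.50, 0.82, 0.25 and 0.31, and replicate 1 alone gave 0.34, 0.205, 0.44, 0.37 and 0.19. Before correction Srebf1 had 79.7, 95.8, 106, 93.7 and 126 CPM in replicates 1 to 5 of 30 months, all above the 50.6 to 63.7 CPM of 2 months. Srebf1 is rich in GC (58.4%), and after correction its 30-month range was 74.6 to 83.3 CPM, beside 71.4 to 83.6 CPM at 24 months on the same scale (30 against 24 months 0.07 ± 0.07, edgeR adjusted p = 0.428). These 5 genes had also passed as higher at 24 against 2 months; both comparisons share the 2-month libraries.

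The other calls at 30 months did not pass in all 3 fits. Nsdhl, which removes a methyl group of the sterol ring, had 33.9, 32.6, 35.4, 30.1 and 46.7 CPM after correction in replicates 1 to 5 of 30 months, all above the 23.1 to 29.3 CPM of 2 months. It was higher than at 2 months with correction (0.40 ± 0.08, edgeR adjusted p = 0.000302) and in replicate 1 alone (0.33), but not without correction (0.13, adjusted p = 0.136). Elovl5 after correction had 83.07, 122.1, 121.4, 127.2 and 129.3 CPM in replicates 1 to 5 of 30 months, against 71.69 to 84.79 CPM at 2 months. Replicate 1 thus lay within the 2-month range and the other 4 far above it, with log2 fold changes of 0.57 ± 0.08 over all 5, 0.21 without correction and 0.08 in replicate 1 alone. Me1 showed the same split, with 36.55 CPM in replicate 1 and 49.07 to 62.83 CPM in the others after correction, against 35.99 to 42.47 CPM at 2 months (0.36 ± 0.08 over all 5, 0.02 without correction and -0.11 in replicate 1 alone). Elovl6 and Acaca passed as lower (-0.41 ± 0.13 and -0.32 ± 0.10), also without correction (-0.76 and -0.34), and replicate 1 alone gave 0.12 and 0.09. Uncorrected Elovl6 levels were 81.9, 44.9, 33.8, 42.1 and 23.3 CPM in replicates 1 to 5 of 30 months. Replicate 1 thus lay with the 2-month libraries while the other 4 lay below all of them. Insig1, Fdps, Sqle and Elovl1 did not pass in replicate 1 alone, where 1 library stands for the age with the spread taken from the other ages, though its fold changes there (0.33, 0.39, 0.18 and 0.14) were near the corrected ones (0.35, 0.51, 0.17 and 0.23) and the uncorrected ones were 0.28, 0.58, 0.12 and 0.375. Sqle did not pass without correction either (edgeR adjusted p = 0.0939). With replicate 1 of 2 months left out and GC correction kept, the calls of Fdps and Sqle at 30 against 2 months were lost. Their fold changes were then 0.50 (edgeR adjusted p = 0.0579) and 0.10 (adjusted p = 0.068). For Sc5d replicate 1 of 30 months gave 0.08, against 0.26 over all 5 and -0.25 without correction. Fa2h after correction had 48.26, 50.7, 41.36, 46.55 and 49.31 CPM in replicates 1 to 5 of 30 months, all above the 34.1 to 39.53 CPM of 24 months. It was higher at 30 than at 24 months (0.35 ± 0.06, edgeR adjusted p = 3.34e-05), also without correction (0.55) and in replicate 1 alone (0.38, adjusted p = 0.00293). Against 2 months it did not pass with correction (0.04 ± 0.06, edgeR adjusted p = 0.637) or in replicate 1 alone (0.07), and passed as higher without correction (0.26, adjusted p = 0.00272). Marker lists moved beside these values, counted with correction and summed without it. Mature oligodendrocyte markers summed to 5750 to 7480 CPM at 30 months, with 3 of 12 higher and 2 lower against 2 months, and 4 higher and 2 lower against 24 months, where Fa2h and Ugt8a were higher. Against 2 months 7 of 10 astrocyte markers were higher and 1 lower, 8 of 10 microglia markers were higher, and 3 of 10 neuron markers were higher and 3 lower. Against 24 months 6 astrocyte and 5 microglia markers were higher, 3 neuron markers were higher and 4 lower, and 4 of 12 liver markers were lower. Neuron markers summed to 7940 to 8663 CPM in replicates 2 to 5 of 30 months and 9875 CPM in replicate 1, against 9464 to 10060 CPM at 2 months. The part of these markers in the 30-month values was not tested.

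**Figure D5:**
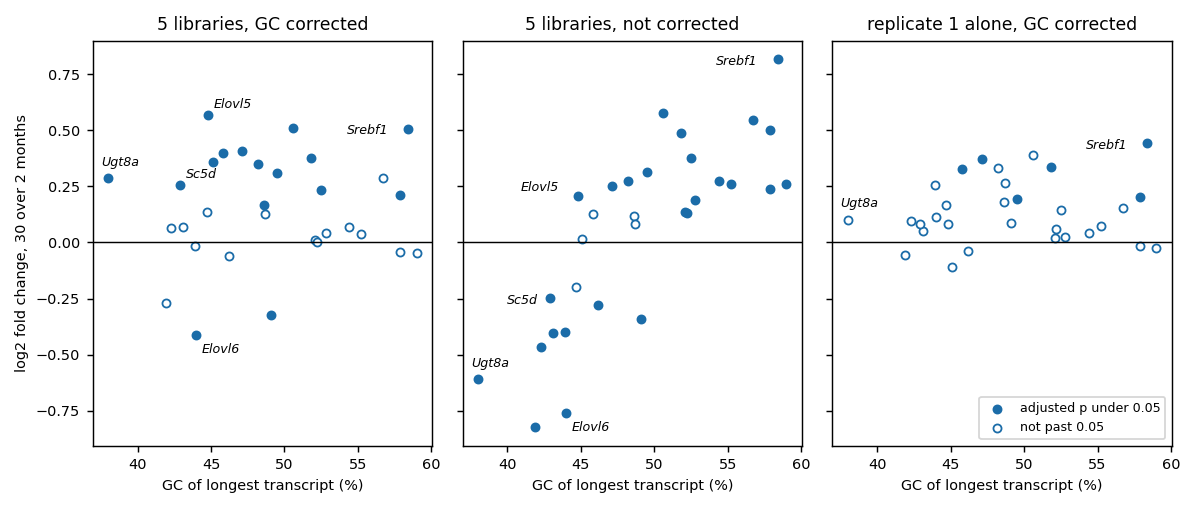
Log2 fold change at 30 over 2 months of the 31 genes against the GC percent of their longest transcript, with GC correction (left), without it (middle) and for replicate 1 of 30 months alone with correction (right); filled marks have an adjusted p under 0.05. Without correction the values tend to rise with GC, with Ugt8a, the poorest, at -0.61 and Srebf1, among the richest, at 0.82. The order is loose: Idi1 (-0.82) and Elovl6 (-0.76, 44% GC) lie below Ugt8a, and Elovl5 (44.8% GC) stands at 0.21. With correction Ugt8a and Srebf1 stand at 0.29 and 0.51, and in replicate 1 alone at 0.10 and 0.44.

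Other genes of the same pathways, from 6 lists with 78 genes of which 77 were found, were counted at 24 against 2 months, where 22.8% of all genes passed. Of 11 other sterol synthesis genes tested 1 rose and none fell: Pmvk, phosphomevalonate kinase (0.18 ± 0.05, edgeR adjusted p = 0.00433). Of 12 genes of SREBP processing and sterol sensing 2 rose, Nr1h2 (0.13 ± 0.04), a sterol receptor of the LXR type, and its partner Rxra (0.25 ± 0.04), and 2 fell, among them Rnf145 (-0.15 ± 0.03). Of 12 genes of sterol uptake, transfer and turnover 4 rose and 3 fell. Those higher included Cyp27a1, a mitochondrial sterol hydroxylase (0.59 ± 0.09, edgeR adjusted p = 1.16e-05), Npc2 (0.21 ± 0.04) and Npc1 (0.13 ± 0.04), which carry cholesterol out of lysosomes. Of 16 other fatty acid synthesis genes 5 rose and 1 fell, with Mlxipl, the sugar-sensing activator ChREBP, at 0.47 ± 0.11 (edgeR adjusted p = 0.00296), Thrsp at 0.26 ± 0.06 and Acsl3 at 0.17 ± 0.04. Of 12 other desaturation and elongation genes 2 rose (Fads6 at 0.16 ± 0.05 and Tecr at 0.11 ± 0.03) and 1 fell (Elovl4 at -0.12 ± 0.04). Of 13 other sphingolipid genes none rose and 3 fell: Cers6 (-0.21 ± 0.04), Ugcg (-0.11 ± 0.03) and Sptlc2 (-0.14 ± 0.04). Liver markers had a median sum of 230 CPM at 24 months and 6.8 CPM at 2 months. Their part in the values of these pathway genes was not tested.

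At 15 against 2 months 6 of the 12 genes of sterol uptake, transfer and turnover passed, 2 higher (Npc1 at 0.16 ± 0.04 and Soat1, which esterifies cholesterol, at 0.18 ± 0.04) and 4 lower (among them Cyp46a1, the neuronal cholesterol hydroxylase, at -0.13 ± 0.03), where 13.1% of all genes passed. In the other lists at 15 months 0 of 11 sterol synthesis genes, 1 of 12 of SREBP processing and sterol sensing and 3 of 16 fatty acid synthesis genes passed. So did 1 of 12 desaturation and elongation genes and 3 of 13 sphingolipid genes. At 30 against 2 months with GC correction the uptake, transfer and turnover list had 6 higher and 2 lower, where 45.6% of all genes passed. Without correction it had 8 higher and 1 lower. Npc1 was higher with correction (0.67 ± 0.06), without it (0.39) and in replicate 1 alone (0.30, edgeR adjusted p = 0.000609). Soat1 was higher with correction (0.64 ± 0.08) and without it (0.21), and not past the threshold in replicate 1 alone (0.21, edgeR adjusted p = 0.0603). The other sterol synthesis genes had 5 higher and 1 lower at 30 months with correction, 5 higher and 3 lower without it, and none past the threshold in replicate 1 alone. Lbr was higher with correction (0.62 ± 0.11) and without it (0.21), and replicate 1 alone gave 0.12. Hsd17b7 (0.52 ± 0.08) was higher and Pmvk (-0.21 ± 0.05) lower with correction only: without it they had 0.08 and 0.05, and in replicate 1 alone 0.07 and -0.07.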

How the data were processed

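RNA from 25 brain samples was sequenced on libraries of the TruSeq RNA kit. Per the submitters' processing notes, CASAVA 1.7, STAR 2.4.1d, featureCounts 1.4.6-p4 and build GRCm38 were used; the order of steps, the strand setting and the annotation release are not given in the sources used here. The deposited values used are raw counts per gene from the authors, for 47729 genes; a second deposited table of normalized values was not used. Of the genes, 47310 were matched by ID to an annotation for length and GC. Counting did not separate genes that share sequence, so members with shared stretches of 50 bases are uncertain.

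Counts were scaled by TMM, filtered by filterByExpr and tested with edgeR 4.0.16 (R 4.3.3), robust quasi-likelihood fit, two-sided, with Benjamini-Hochberg adjustment over all genes tested (17472 and 17738) at 0.05. Comparisons among 2 to 24 months used those 20 libraries; comparisons with 30 months used all 25 with a GC offset per library (spline, 5 degrees of freedom). The standard error was taken as the size of the log2 fold change over the root of the F statistic. The GC gap used genes with a mean of at least 1 CPM, and covariation used log2(CPM + 0.5). Alternatives were other scalings, no low-count filter, DESeq2 1.42.0, limma 3.58.1 (voom), a single fit, a GC correction, a liver covariate and leaving out each library. Any of the 31 members could be named; up to 8 per comparison with the largest absolute log2 fold change among those called were to be given by library, and up to 3 genes per pathway list by lowest p. Other values given by library were chosen after they were seen. The members, lists and the choice of the 20-library fit were made with earlier results of these data known. The functions were tested on simulated data. No 2 libraries of an age differed by as little as sampling noise. One result in the pathway lists is not reported here.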

Additional observations from a re-analysis of the deposited data

Results flagged for a closer look

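In 155 groups of 5 libraries (31 genes at 5 ages), 9 held a library whose gap to the nearest other exceeded 0.71 of the group's range, the 95% limit of Dixon's test; chance alone flags about 1 in 20 groups, or 7.75 of these. Replicate 1 of 2 months was the low library for 3 genes: Sc5d at 45.2 CPM (others 56.7 to 60.3 CPM), Scd2 at 1453 CPM (others 1577 to 1605 CPM) and Elovl6 at 59.0 CPM (others 80.2 to 82.5 CPM). In replicate 1 of 9 months Srebf1 was high at 71.0 CPM (others 54.1 to 57.7 CPM), as was Acly at 242 CPM (others 233.4 to 235.6 CPM). In replicate 3 of 15 months Scd2 was low at 1628 CPM (others 1687 to 1706 CPM), and in replicate 3 of 24 months Acaca was low at 39.5 CPM (others 43.6 to 44.6 CPM). At 30 months, without GC correction, Idi1 was high in replicate 1 at 2.52 CPM (others 1.02 to 1.395 CPM), which was the library with the smallest GC gap of that age, and Insig1 was low in replicate 5 at 60.7 CPM (others 72.3 to 76.6 CPM), the library with the largest.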

How the results depend on the processing

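With all 25 libraries fitted together, the counts of the 31 genes called were 1, 1 and 6 at 9, 15 and 24 months against 2 months, 0 at 15 against 9 months, 1 at 24 against 15 months and 6 for the trend, against 7, 7, 13, 3, 3 and 11 in the fit of 20. For 15 against 9 months that 0 compares with 7 genes at an unadjusted p under 0.05 in the same fit, 14 in the fit of 20, 5 adjusted calls by DESeq2 and 3 by limma-voom. Over all genes the fit of 25 called 423, 224, 932, 3, 201 and 990, against 2599, 2281, 3977, 1904, 4214 and 2927. With the liver covariate 3, 7 and 2 members were called at 15 and 24 months against 2 months and for the trend (2025 and 914 of all genes for the last pair). A GC correction gave 1 member at 15 against 9 months (1000 of all genes), 1446 genes at 15 against 2 months and 2092 at 24 against 15 months. DESeq2 gave 5 members each at 15 against 9 and 24 against 15 months. Shares over all genes are not given here for DESeq2, limma-voom or the liver covariate at 15 months. At 30 against 2 months 26 members were called without GC correction and 6 without replicates 2 to 5 of 30 months (1661 of all genes, against 8090), and 4 at 30 against 24 months without them (838, against 7279). Without those replicates the direction turned at 30 against 2 months for Elovl6 (0.12) and Me1 (-0.11), and at 30 against 24 months for Elovl5 (-0.087) and Me1 (-0.23). Without GC correction it turned at 30 against 24 months for Me1 (-0.083), Sc5d (-0.20) and Ugt8a (-0.29). The cause was not tested.

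Leaving out 1 library at a time gave 4 to 7, 4 to 9 and 10 to 16 members called at 9, 15 and 24 months against 2 months, 1 to 9 at 15 against 9 months, 3 to 6 at 24 against 15 months, 8 to 15 for the trend, 15 to 17 at 30 against 2 months and 13 to 18 at 30 against 24 months. Counts moved by over 1.5 times without replicate 4 of 2 months or replicate 2 of 9 months (4 each at 9 against 2 months), replicate 5 of 15 months (4 at 15 against 2 months), replicates 2, 4 or 5 of 9 months (1, 7 and 6 at 15 against 9 months) and replicate 1 of 2 months (9 at 15 against 9 months, 6 at 24 against 15 months). In that last fit 11.7% and 25% of all genes passed in these comparisons, against 10.9% and 24.1% in the full fit. Shares over all genes are not given here for the other fits that left out 1 library. The ranges thus do not tell whether the 31 genes moved more than other genes. Scaling by total counts split the calls over all genes as 963 higher and 1773 lower at 9 against 2 months (1383 and 1216 with TMM), 1130 and 817 at 15 against 9 months (777 and 1127), and 2541 and 1698 at 24 against 15 months (2076 and 2138). No paired analysis was possible because the labels carry no replicate numbers shared between ages; numbers were given in accession order. Depth limited Fdps and Idi1 most, at the lowest counts of the 31 genes.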
